A study of Mus musculus with 20 samples.

Results

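The 10 genes followed here in mouse liver and a mouse macrophage line are NF-kB targets, many of which restrain it or keep cells alive. They were chosen by symbol, as 10 of the 24972 rows that each of the 2 deposited tables holds: Nfkbia, Nfkbie, Nfkbiz, Bcl3, Tnfaip3, Tnip1, Relb, Traf1, Birc3 and Tnfaip2. All 10 had a row in both tables. RNA was sequenced from 14 total liver lysates and from 6 samples of RAW264.7, a transformed male macrophage-like cell line. The livers came, per the labels, from male mice fed for 6 weeks: 4 libraries from WT mice given control diet, 4 from WT mice given alcohol diet, 3 from RageΔMye mice given control diet and 3 from RageΔMye mice given alcohol diet. RageΔMye is read here as loss of RAGE, the receptor encoded by Ager, in myeloid cells. The driver of that deletion, the strain and the age of the animals are not named in the sources used here. RAW264.7 cells, labelled WT, had received BSA (n = 3) or the complex, [O] HMGB1 with IL1β (n = 3), for 6 hours. [O] HMGB1 is the oxidised form of a nuclear protein that acts as an alarm signal outside cells, and IL1β is a cytokine that signals to NF-kB. Nothing in the labels says that replicates came from separate animals or cultures. The p-values below then measure only the spread between these samples, which may be technical.

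NF-kB transcription factors are dimers that IkB proteins hold inactive in the cytoplasm. Receptors for cytokines and danger signals activate IKK kinases, the IkB proteins are degraded, and the freed dimers enter the nucleus. Among their targets are genes for new IkB proteins and for ubiquitin-editing enzymes that shut the signal down, and genes for proteins that protect a cell from death triggered by TNF. In liver the pathway acts in Kupffer cells and recruited myeloid cells, where it drives inflammation, and in hepatocytes, where it favours survival.

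No header states the unit of the deposited values. They were made by the authors and are read here as TPM, a measure of transcript abundance scaled by gene length and library total. The number of reads behind them is unknown. Genes above 0 numbered 15113 to 15599 per WT liver library, 7596 to 8502 in those labelled RageΔMye and 8630 to 9231 per RAW264.7 library. Between 0 and 2 of 14 housekeeping genes were at 0 in a RAW264.7 library, and 1 to 2 in a library labelled RageΔMye, so a 0 there is reported as listed at 0 and not as an absent transcript. Ager stood at 93.1 to 166 TPM in the libraries labelled RageΔMye and at 0.0194 to 0.478 TPM in WT liver, against what the labels say, and directions drawn from that label carry this limit. Genes whose exons overlap an exon on the opposite strand took 15.8% to 18.4% of placed TPM in WT liver, 57.8% to 64.0% in liver with the RageΔMye label, and 69.3% to 73.5% in the cell line. RAW264.7 libraries held the macrophage markers Cd68 (306 to 534 TPM) and Lyz2 (432 to 807 TPM), while all 10 hepatocyte markers and 8 of 15 macrophage and Kupffer cell markers, among them Clec4f, Vsig4 and C1qa, were listed at 0 in each of them. Each WT liver library held all 10 hepatocyte markers, and each library labelled RageΔMye held 9 or 10, with Ass1 listed at 0 in some.

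On mm10, the build named in the submitters' processing notes, the genes lie on the chromosomes below (GENCODE vM21). The IkB genes are Nfkbia (chr12:55489410-55492647, minus strand), Nfkbie (chr17:45555703-45563169, plus), Nfkbiz (chr16:55811375-55838899, minus) and Bcl3 (chr7:19808462-19822770, minus). The ubiquitin editor is Tnfaip3 (chr10:19000910-19015657, minus), and the gene of its partner is Tnip1 (chr11:54910785-54962917, minus). Relb (chr7:19606217-19629438, minus), Traf1 (chr2:34941750-34961772, minus), Birc3 (chr9:7848699-7873186, minus) and Tnfaip2 (chr12:111442469-111455018, plus) make up the rest. Exons of Bcl3 and Tnfaip2 overlap exons of the antisense genes Gm16175 (chr7:19809609-19811872, plus) and Gm40578 (chr12:111450405-111500840, minus). The sources used here do not give the strand setting of the authors' counting, so reads of these 2 genes and of their partners cannot be told apart. The other 8 have no exon overlap with a gene on the opposite strand, which does not show that the setting left their values untouched. Overlap genes took a larger share of placed TPM in liver labelled RageΔMye and in the cell line than in WT liver. What lies behind this share, and its part in the values of these 8, was not tested.

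Promoter sequence is shown because these genes are classic NF-kB targets and their promoters can be read for its binding motif. RefSeq promoters of 300 bases (GRCm38.p6, the same assembly as mm10, 250 bases before the start site to 49 after it) were matched for 8 of the 10 genes. Nfkbiz and Relb were not matched. The kappaB consensus, searched by that name on both strands with overlapping matches counted, was present in promoters of 6 of the 8, Nfkbia, Nfkbie, Bcl3, Tnfaip3, Tnip1 and Tnfaip2, and was not found in those of Traf1 and Birc3. It was present in promoters of 9.55% of 27025 genes. The AP-1 motif TGANTCA was present in the promoters of 2 of the 8, Nfkbie and Tnfaip3, against 8.973% of all genes. A match describes letters, not a bound site. Start sites here are those of RefSeq. They equal the GENCODE gene ends given above for Nfkbia and Traf1 and differ from them for the other genes matched. By the GENCODE coordinates, the stretches of Tnfaip3 and Tnfaip2 below lie inside the gene, and those of Bcl3 and Birc3 do in part. Each stretch below runs 5′ to 3′ along the gene's own strand, with the kappaB matches in capitals. Those of Nfkbia (chr12:55492648-55492747), Tnip1 (chr11:54962941-54963040), Tnfaip2 (chr12:111442561-111442660), Traf1 (chr2:34961773-34961872) and Birc3 (chr9:7873171-7873270) are the 100 bases before the start site. That of Tnfaip3 (chr10:19015411-19015560) is the 150 bases before it, that of Nfkbie (chr17:45555550-45555649) covers bases -150 to -51, and that of Bcl3 (chr7:19822731-19822830) covers bases -75 to 24, where its match begins 2 bases after the start-site base.
Nfkbia: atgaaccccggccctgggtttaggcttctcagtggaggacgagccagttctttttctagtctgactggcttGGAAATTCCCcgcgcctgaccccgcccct
Nfkbie: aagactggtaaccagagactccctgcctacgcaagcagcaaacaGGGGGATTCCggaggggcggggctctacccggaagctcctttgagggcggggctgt
Bcl3: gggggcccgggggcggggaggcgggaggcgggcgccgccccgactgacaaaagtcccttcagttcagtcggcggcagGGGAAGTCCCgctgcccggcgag
Tnfaip3: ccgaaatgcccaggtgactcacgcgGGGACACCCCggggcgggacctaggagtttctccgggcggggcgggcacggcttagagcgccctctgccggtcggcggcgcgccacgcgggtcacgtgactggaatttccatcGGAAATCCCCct
Tnip1: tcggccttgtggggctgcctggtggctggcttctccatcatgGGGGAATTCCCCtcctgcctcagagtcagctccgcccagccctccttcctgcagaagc
Tnfaip2: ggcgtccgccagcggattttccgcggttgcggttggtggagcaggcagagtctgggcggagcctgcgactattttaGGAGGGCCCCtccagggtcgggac
Traf1: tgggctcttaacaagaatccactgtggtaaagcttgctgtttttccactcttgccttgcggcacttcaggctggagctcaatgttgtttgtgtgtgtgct
Birc3: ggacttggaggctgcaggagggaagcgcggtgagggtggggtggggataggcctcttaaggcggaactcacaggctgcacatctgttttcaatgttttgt
The Tnfaip3 stretch holds 2 separate matches, beginning 125 and 12 bases before the start site. The Tnip1 run of capitals holds 3 matches that overlap by a shift of a single base. A second annotated Tnfaip3 promoter held no match.

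In RAW264.7 cells the complex was compared with BSA to see how macrophages answer the oxidised HMGB1 and IL1β together. All 10 genes had a higher mean of log2(TPM + 1) with the complex, with a median difference of 1.94 against -0.09 over the 10559 genes tested. None passed the test (adjusted p under 0.05 in limma), as against 16 genes tested that rose, 0.152% of them. At an unadjusted p under 0.05, 7 of the 10 were higher, where the background was 3.39%. For 8 of the 10 every complex library lay above every BSA library, where the background was 5.63%. Traf1, 1 of the 7 and 1 of the 8, entered the test only through its level with the complex. It had to be higher. The count of 0 that passed, and the count of 7, stood in each of the 6 fits that left out a library.

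Of the IkB genes, Nfkbia encodes IkBα, the inhibitor rebuilt first after NF-kB activation. Nfkbia stood at 20.3, 22.7 and 59.9 TPM in BSA replicates 1 to 3 and at 129, 158 and 128 TPM in complex replicates 1 to 3. BSA replicate 3 was the highest of the controls, and its value was still below that of each complex library. The mean was 34.3 ± 22.2 TPM (SD, n = 3) with BSA and 138 ± 16.9 TPM (SD, n = 3) with the complex. The difference was 2.14 on the log2(TPM + 1) scale (SE 0.41), with an adjusted p of 0.133.

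Nfkbiz, whose product IkBζ works in the nucleus as a co-activator of secondary targets, was listed at 0.645, 4.36 and 0 TPM with BSA and at 13.8, 9.95 and 7.17 TPM with the complex. The groups did not overlap, and the BSA libraries differed among themselves from 0 to the level of BSA replicate 2 (difference 2.41, SE 0.75, adjusted p = 0.414). Bcl3, a nuclear IkB protein that binds p50 and p52 dimers, was listed at 1.65, 1.91 and 0 TPM with BSA and at 1.88, 3.12 and 4.85 TPM with the complex. Its groups overlapped, since complex replicate 1 lay just below BSA replicate 2 (difference 1.06, SE 0.68, adjusted p = 0.721). Nfkbie, which encodes IkBε, a slower cytoplasmic inhibitor, stood at 14.2, 3.23 and 3.91 TPM with BSA and at 9.47, 3.35 and 9.41 TPM with the complex. BSA replicate 1 was the highest of the 6 and complex replicate 2 among the lowest, and the difference of 0.20 (SE 0.69, 95% interval -1.42 to 1.81, adjusted p = 0.958) was within the spread of the libraries.

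Of the ubiquitin editor and its partner, Tnfaip3 encodes A20, which removes activating ubiquitin chains from signalling adaptors such as RIPK1. Tnfaip3 stood at 6.72, 3.02 and 4.32 TPM with BSA and at 36.1, 23.7 and 39.9 TPM with the complex. The groups lay far apart, the lowest being complex replicate 2 at 23.7 TPM against 6.72 TPM in BSA replicate 1. The ratio of the mean levels was 7.10, the difference 2.61 (SE 0.43) and the adjusted p 0.0820. Tnip1, whose product binds A20 and ubiquitin chains, had the highest level of the 10 genes in both groups by median, 72.2, 45.5 and 77.2 TPM with BSA and 169, 98.5 and 129 TPM with the complex. Its groups did not overlap, with complex replicate 2 the nearest to the controls (difference 1.02, SE 0.30, adjusted p = 0.367).

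Relb, the NF-kB subunit of the slower non-canonical branch, stood at 2.86, 1.60 and 1.96 TPM with BSA and at 14.5, 8.75 and 11.3 TPM with the complex. All 3 complex libraries were above the BSA libraries, and the spread within each group was small beside the gap (ratio of means 5.38, difference 1.99, SE 0.49, adjusted p = 0.258). Traf1, an adaptor of TNF receptor signalling that works with the cIAP ligases, was listed at 2.65, 0 and 0 TPM with BSA and at 14.6, 18.5 and 5.79 TPM with the complex. Among its controls BSA replicate 1 alone had a value above 0 (difference 3.05, SE 0.76, adjusted p = 0.262). Birc3, the ubiquitin ligase cIAP2 that blocks death signalling downstream of TNF receptors, was listed at 2.34, 2.63 and 0 TPM with BSA and at 2.66, 5.55 and 7.79 TPM with the complex. Complex replicate 1 exceeded BSA replicate 2 only barely, so the groups did not overlap but nearly touched (difference 1.37, SE 0.73, adjusted p = 0.651).

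Tnfaip2, a TNF-induced gene whose product shapes membrane protrusions, stood at 21.0, 26.8 and 30.0 TPM with BSA and at 104, 79.1 and 111 TPM with the complex. Its mean was 25.9 ± 4.55 TPM (SD, n = 3) with BSA and 98.1 ± 16.8 TPM (SD, n = 3) with the complex, with no overlap. It had the smallest p of the 10 (difference 1.88, SE 0.26, adjusted p = 0.0527), and its adjusted p ran from 0.05 to 0.376 over the alternatives without reaching the threshold. The part of its antisense partner Gm40578 in these values was not tested. Among the 10, BSA replicate 3 listed 4 genes at 0 (Nfkbiz, Bcl3, Traf1 and Birc3) and held the highest BSA value of Nfkbia, Tnip1 and Tnfaip2.

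**Figure D1:**
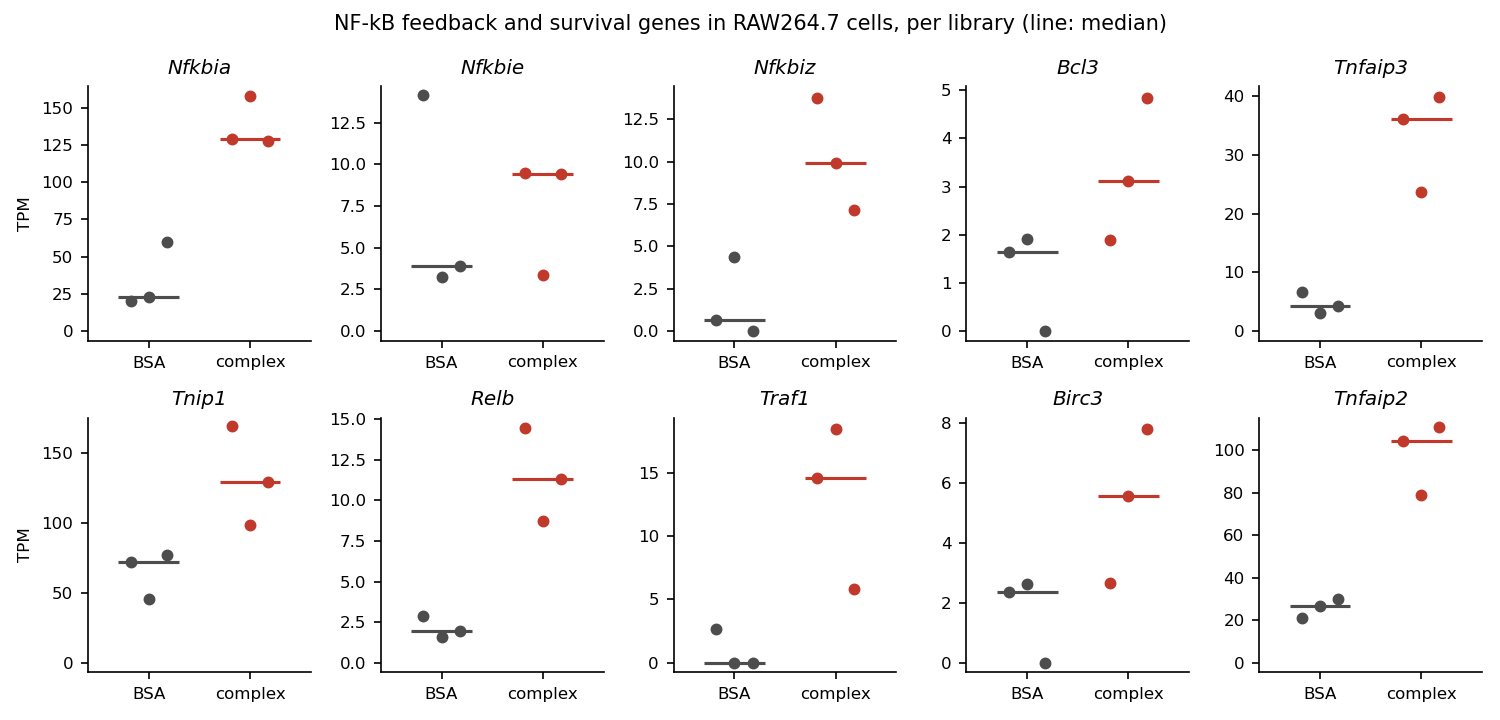
Each panel plots 1 gene in RAW264.7 cells, with TPM on the vertical axis, a point per library (3 with BSA, 3 with the complex, in replicate order) and a line at the median. Complex libraries lie above BSA libraries for every gene but Nfkbie and Bcl3.

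By median level with BSA, Tnip1 came first, then Tnfaip2 and Nfkbia, whose ranges overlapped, then Tnfaip3 and Nfkbie, which overlapped too, and with medians below 3 TPM Birc3, Relb, Bcl3, Nfkbiz and Traf1. With the complex Nfkbia (128 to 158 TPM) and Tnip1 (98.5 to 169 TPM) overlapped at the top and Tnfaip2 (79.1 to 111 TPM) overlapped with Tnip1. Tnfaip3 (23.7 to 39.9 TPM) stood apart from the genes above and below it. Traf1, whose median was listed at 0 with BSA, followed Tnfaip3 with the complex, at a median of 14.6 TPM, and its range overlapped those of Relb, Nfkbiz, Nfkbie and Birc3.

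The rest of the pathway was read from lists of related genes. In RAW264.7 cells the inflammatory targets had 17 of 18 tested genes higher and 3 that passed, with a list median of 1.75. Of all genes tested, 43.8% were higher and 0.152% passed as higher. Of these 18, Il1b, Cxcl10, Ccl5, Ptgs2, Saa3 and Lcn2 entered the test only through their level with the complex, so these 6 had to be higher. Tnf, the cytokine that also feeds the pathway, rose from 374 ± 90.6 TPM (SD, n = 3) to 2291 ± 142 TPM (SD, n = 3), by 2.64 (SE 0.19, adjusted p = 0.0036). The chemokine gene Cxcl2 rose from 8.97 ± 3.82 to 87.7 ± 9.37 TPM (SD, n = 3), by 3.21 (SE 0.35, adjusted p = 0.0263). Il1b, 1 of those 6, passed too (adjusted p = 0.0300), listed at 0 in each BSA library and at 16.9 to 36.1 TPM with the complex. Its exons overlap a gene on the opposite strand. Of 5 other genes of IkB or IkB-related proteins, Nfkbil1 passed (difference 2.22, SE 0.21, adjusted p = 0.0134). Its exons also overlap a gene on the opposite strand. None of 4 Rel/NF-kB subunits passed (median 0.53), and neither did any of 14 receptor-proximal adaptors and kinases tested (-0.25), 6 IKK kinases (0.17), 14 other feedback inhibitors (0.27) or 12 other survival targets (0.99). Rela, the main activating subunit, stood at 14.9, 25.3 and 18.3 TPM with BSA and at 5.06, 14.6 and 6.83 TPM with the complex, lower without overlap (adjusted p = 0.586). Map3k14, the kinase of the non-canonical branch, was also lower without overlap, listed at 17.2, 9.83 and 14.3 TPM with BSA and at 0, 8.12 and 1.91 TPM with the complex (adjusted p = 0.518). Socs3, an inhibitor of cytokine receptor signalling, was listed at 0 in 2 BSA libraries and at 10.2 to 12.4 TPM with the complex, through which alone it entered the test (adjusted p = 0.118). Plk2, a stress-induced kinase gene, stood at 36.7 ± 7.55 TPM (SD, n = 3) with BSA and 120 ± 14.1 TPM (SD, n = 3) with the complex (adjusted p = 0.0527). Each of the 4 calls was lost in at least 3 of the 6 fits that left out a library. Over all their alternatives the adjusted p reached 0.112 for Tnf, 0.317 for Cxcl2 and Il1b and 0.197 for Nfkbil1.

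In WT liver alcohol diet was compared with control diet to see how the same genes stand in the whole organ after 6 weeks. Nfkbia, Bcl3, Tnfaip3 and Nfkbiz rose, and none of those tested fell. The 4 that rose are 4 of the 6 genes that reached a mean of 1 TPM in either group and were tested. Over all 9747 genes tested, 13.3% rose and 17.9% fell. The median difference of the 6 was 0.75 against -0.05 over all genes. In 3 of the 6, every alcohol library was above every control library, where the background was 12.3%. Relb, Traf1, Nfkbie and Tnfaip2 were under 1 TPM in both group means.

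Before these values are read, the labels have to be set beside the libraries. Although every animal is labelled male, Xist, which is transcribed from the inactive X chromosome of females, stood at 0.0016 to 0.135 TPM in WT livers on control diet but at 17.8 to 27.3 TPM in those on alcohol. The summed level of 4 Y-linked genes was 11.3 to 16.6 TPM in the former and 0 to 0.0161 TPM in the latter. Diet and sex therefore cannot be told apart in WT liver, for any of the genes below. In a whole-liver lysate, fewer cells of a type and less RNA per cell also cannot be told apart.

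Nfkbia was the most abundant of the 10 in WT liver. It stood at 16.8, 19.0, 15.1 and 14.8 TPM in control replicates 1 to 4 and at 28.6, 32.5, 26.2 and 26.5 TPM in alcohol replicates 1 to 4. The groups did not overlap, and neither group held a library far from its others. The mean was 16.4 ± 1.93 TPM (SD, n = 4) on control diet and 28.5 ± 2.89 TPM (SD, n = 4) on alcohol, a ratio of 1.73. The rise was 0.76 (SE 0.12, adjusted p = 0.0016), and it passed in each of the 8 fits that left out a library. In a fit of all 14 liver libraries with 1 shared spread it did not pass (adjusted p = 0.852), and the adjusted p over its alternatives ran from 0.0012 to that value.

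Bcl3 stood at 5.02, 2.15, 4.16 and 5.64 TPM in controls and at 8.16, 8.82, 8.84 and 13.5 TPM on alcohol. Every alcohol library was above every control library, control replicate 2 was the lowest and alcohol replicate 4 the highest. Its mean was 4.24 ± 1.52 TPM (SD, n = 4) and 9.83 ± 2.47 TPM (SD, n = 4), and the rise was 1.08 (SE 0.23, adjusted p = 0.0072). On this log2(TPM + 1) scale it was the largest of the 6 tested, while by the ratio of mean TPM Tnfaip3 was ahead of it (2.99 against 2.32). It passed in each of the 8 fits that left out a library, with differences of 0.85 to 1.21. In the fit of all 14 liver libraries with 1 shared spread its adjusted p was 0.130, the highest over its alternatives, the lowest being 0.0014. The part of its antisense partner Gm16175 in these values was not tested.

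Nfkbiz stood at 2.34, 2.27, 2.38 and 1.92 TPM in controls and at 6.65, 5.68, 4.01 and 2.24 TPM on alcohol. The groups overlapped, because alcohol replicate 4 lay within the control range while replicates 1 and 2 were the highest. The mean was 2.23 ± 0.21 TPM (SD, n = 4) on control diet and 4.64 ± 1.94 TPM (SD, n = 4) on alcohol, and the rise of 0.74 (SE 0.23) passed with an adjusted p of 0.0347. The call held in 1 of 8 fits that left out a library, the one without alcohol replicate 4 (difference 0.98, adjusted p = 0.0033). It was lost without control replicate 1, 2, 3 or 4 or alcohol replicate 1, 2 or 3, with adjusted p between 0.0571 and 0.0952. Over all its alternatives the adjusted p ran from 0.0033 to 0.398.

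Tnfaip3 stood at 1.45, 0.995, 0.974 and 1.58 TPM in controls and at 3.94, 6.89, 1.96 and 2.17 TPM on alcohol. Every alcohol library was above every control library, with alcohol replicates 1 and 2 well above replicates 3 and 4. The mean was 1.25 ± 0.31 TPM (SD, n = 4) on control diet and 3.74 ± 2.28 TPM (SD, n = 4) on alcohol, and the rise was 0.97 (SE 0.28, adjusted p = 0.0232). The call was lost without control replicate 2 (adjusted p = 0.0541), control replicate 3 (0.0623) or alcohol replicate 1 (0.0630), and the adjusted p over all alternatives ran from 0.0053 to 0.0652.

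Tnip1 and Birc3 were tested and did not pass. Tnip1 stood at 2.63, 3.26, 3.48 and 3.36 TPM in controls and at 3.96, 3.76, 3.30 and 3.60 TPM on alcohol, with overlapping groups (difference 0.16, 95% interval -0.10 to 0.41, adjusted p = 0.323). Birc3 stood at 2.15, 3.63, 4.24 and 2.75 TPM in controls and at 4.196, 3.88, 3.00 and 4.58 TPM on alcohol. Its groups overlapped across most of their range (difference 0.24, 95% interval -0.14 to 0.63, adjusted p = 0.314).

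Of the 4 genes below 1 TPM, Relb and Traf1 were separate between diets, and Nfkbie and Tnfaip2 were not. Relb stood at 0.193, 0.300, 0.178 and 0.212 TPM in controls and at 0.471, 0.532, 0.315 and 0.620 TPM on alcohol, without overlap. Traf1 stood at 0.0999, 0.241, 0.1005 and 0.0941 TPM in controls and at 0.332, 0.302, 0.462 and 0.302 TPM on alcohol, also without overlap, although control replicate 2 was above the other controls. With no filter on low values, 17323 genes were tested. Relb (difference 0.28, SE 0.07, adjusted p = 0.0252) and Traf1 (0.25, SE 0.05, adjusted p = 0.0192) then passed, while Nfkbiz (adjusted p = 0.0831) and Tnfaip3 (0.0652) did not, so 4 of 10 passed either way with a different set. The pseudocount of 1 TPM compresses differences at these levels. With a pseudocount of 0.1 and no filter, chosen after seeing the data, the differences were 0.85 (SE 0.21, adjusted p = 0.0265) for Relb and 0.97 (SE 0.22, adjusted p = 0.0197) for Traf1.

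Nfkbie stood at 0.538, 0.965, 0.685 and 0.884 TPM in controls and at 1.02, 0.841, 0.857 and 0.644 TPM on alcohol, and Tnfaip2 at 0.672, 0.802, 0.957 and 1.05 TPM in controls and at 0.801, 0.934, 0.789 and 1.06 TPM on alcohol. Both overlapped over nearly their whole range. Without the filter the difference was 0.06 for Nfkbie (95% interval -0.17 to 0.29, adjusted p = 0.704) and 0.02 for Tnfaip2 (95% interval -0.17 to 0.22, adjusted p = 0.884). Among alcohol libraries the genes did not share 1 order. Tnfaip3 and Nfkbiz were highest in replicates 1 and 2, and Bcl3 and Relb in replicate 4, where Nfkbiz was lowest.

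**Figure D2:**
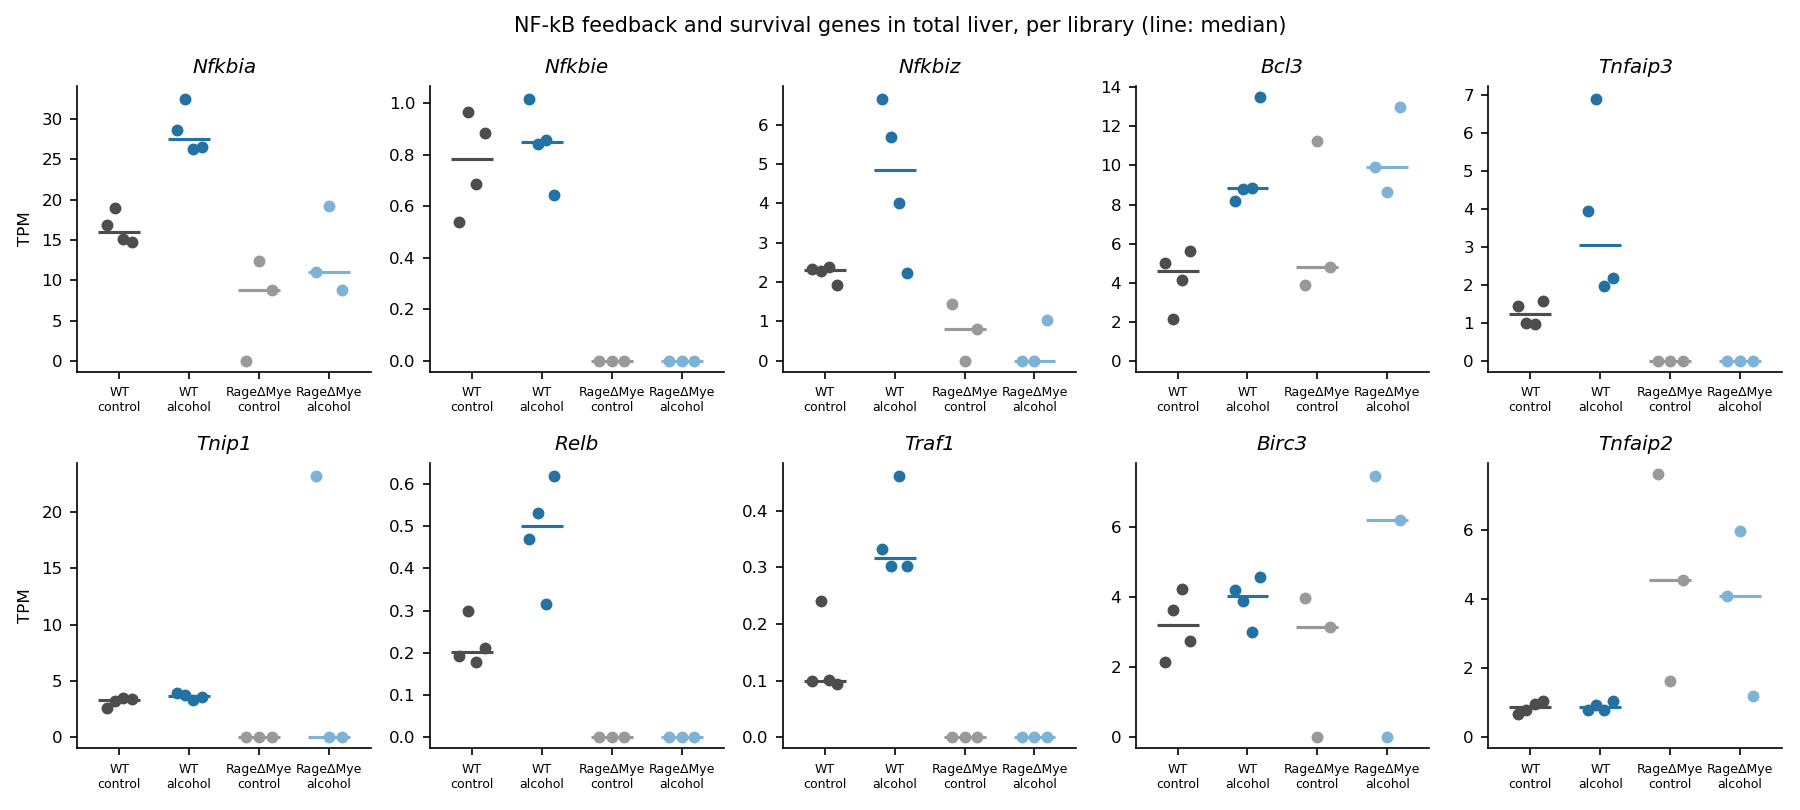
Each panel plots 1 gene in total liver, with TPM on the vertical axis, a point per library in replicate order and a line at the median, for WT (4 per diet) and RageΔMye (3 per diet). Nfkbia, Bcl3, Tnfaip3, Relb and Traf1 do not overlap between WT diets, and Nfkbie, Tnfaip3, Relb and Traf1 are at 0 in each RageΔMye library.

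By median on control diet Nfkbia (14.8 to 19.0 TPM) stood apart at the top. Bcl3, Tnip1, Birc3 and Nfkbiz followed between 1.92 and 5.64 TPM, and each overlapped its neighbour in that order. Tnfaip3 (0.974 to 1.58 TPM) lay below Nfkbiz without overlap and overlapped with Tnfaip2 and Tnfaip2 with Nfkbie. Relb (0.178 to 0.300 TPM) and Traf1 (0.0941 to 0.241 TPM) overlapped at the bottom. On alcohol Nfkbia and Bcl3 still led and Tnfaip2, Nfkbie, Relb and Traf1 still closed the order, with Nfkbiz now ahead of Birc3 and Tnip1.

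Other genes of the pathway rose and fell beside them, where 13.3% of all 9747 genes tested rose and 17.9% fell. Of the other feedback inhibitors 4 of 12 tested rose, Tnip2 by 1.28 (adjusted p = 4.1e-04), Irak3, a brake on IL-1 and Toll-like receptor signalling, by 0.81 (adjusted p = 3.8e-04), Zc3h12a, a ribonuclease that degrades cytokine mRNA, by 0.46 (0.0136) and Dusp1 by 0.59 (0.0282). Of the other survival targets 6 of 10 rose, among them the anti-apoptotic Bcl2l1 from 17.0 ± 2.96 to 55.9 ± 14.4 TPM (SD, n = 4), Gadd45b from 1.83 ± 0.87 to 17.4 ± 8.91 TPM and Ier3 from 3.70 ± 0.53 to 37.7 ± 28.5 TPM. Of the inflammatory targets 8 of 11 rose, Icam1 by 1.27, Vcam1 by 0.91, Ccl5 by 0.79 and Lcn2 by 3.53. Rela was 1 of 2 subunits tested that rose (0.40, adjusted p = 0.0267). Nfkbib rose as 1 of 3 other genes of IkB or IkB-related proteins (0.61, adjusted p = 0.0057). Among 12 receptor-proximal adaptors and kinases Myd88 (1.00) and Ripk1 (0.60) rose and Tradd fell by 0.76. Among 6 IKK kinases Map3k14 rose by 0.49, having reached the 1 TPM filter only on alcohol, so that it had to be higher. Ikbkg, the regulatory subunit of the IKK complex, fell by 0.65. The counts called among these adaptors and IKK kinases were near the shares over all genes. Exons of Irak3, Dusp1, Icam1, Vcam1, Nfkbib, Myd88, Ripk1 and Ikbkg overlap exons on the opposite strand. The part of the overlapping genes in these values was not tested. The calls of Rela, Ripk1 and Dusp1 were lost in 4, 5 and 5 of the 8 fits that left out a library. Their adjusted p there reached 0.0745, 0.0776 and 0.0849. The other calls named in this paragraph passed in each of those 8 fits. Of these, only Irak3, Gadd45b and Ccl5 also passed in all their other alternatives. For the rest the highest adjusted p over the alternatives ran from 0.182 for Lcn2 to 0.9999 for Zc3h12a. List medians were 0.20 for the other feedback inhibitors, 0.44 for the other survival targets and 0.66 for the inflammatory targets, beside -0.05 over all genes.

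**Figure D3:**
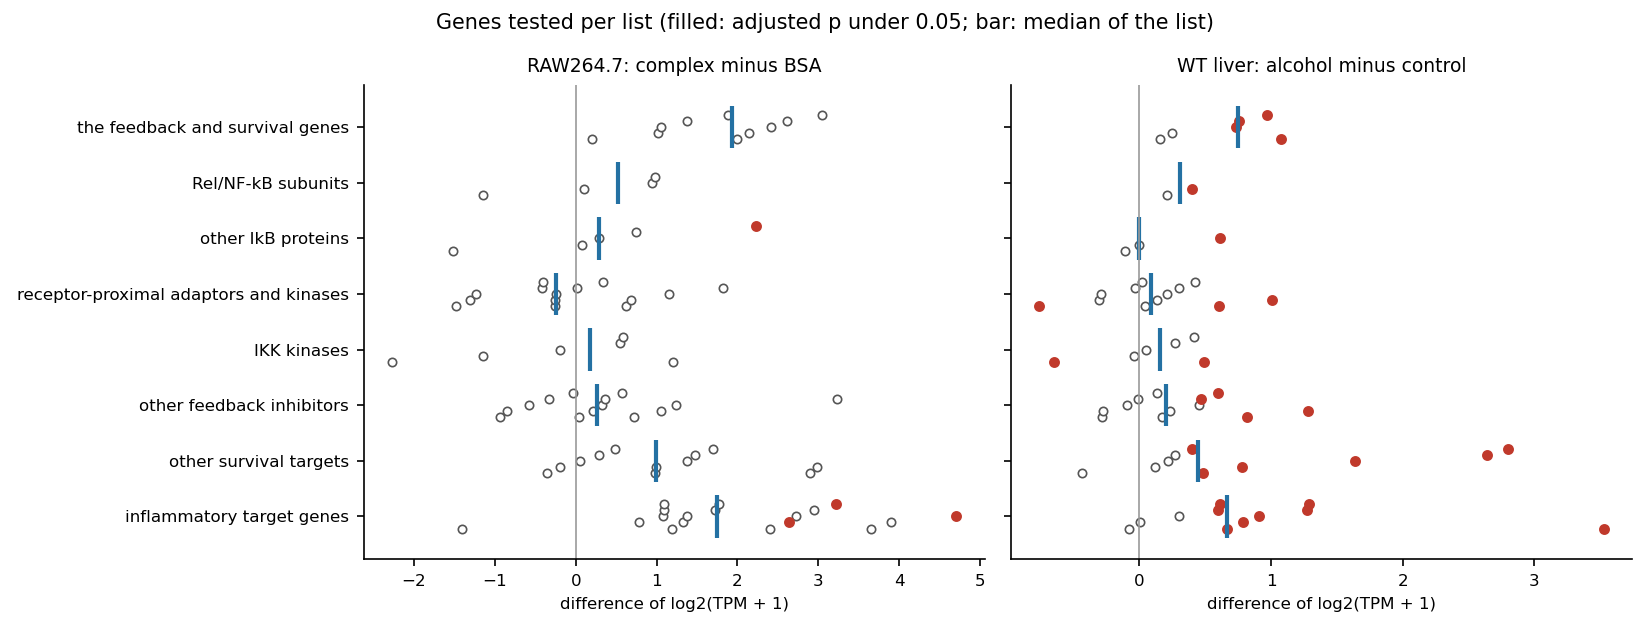
Points are genes tested, placed by the difference of log2(TPM + 1) on the horizontal axis and grouped by list, for RAW264.7 cells and WT liver, filled where the adjusted p was under 0.05, with a bar at the list median. The feedback and survival genes have medians of 1.94 in RAW264.7 cells with none filled and 0.75 in WT liver with 4 filled. The list drawn as other IkB proteins also holds genes of IkB-related proteins.

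Markers of several cell types were read beside these genes in WT liver, where 13.3% of 9747 genes tested rose and 17.9% fell. Of 8 monocyte and neutrophil markers tested 6 rose (S100a4 and Ngp among them reached the filter only on alcohol), and the summed level of all 11 listed was 37.7 to 86.9 TPM on control diet and 155 to 257 TPM on alcohol. Of 15 macrophage and Kupffer cell markers 2 rose, Itgam among them having reached the filter only on alcohol (sum 325 to 345 against 266 to 543 TPM). Of 10 sinusoidal endothelial markers 3 rose (76.2 to 203 against 116 to 262 TPM), and of 7 stellate cell markers tested 4 rose, Des among them having reached the filter only on alcohol (39.8 to 61.4 against 73.0 to 133 TPM). Of 6 T, NK and B cell markers tested 1 rose and 1 fell, with 5 of the 6 reaching the filter in a single group, and of 10 hepatocyte markers 2 rose and 1 fell. The counts called among macrophage and Kupffer cell, T, NK and B cell and hepatocyte markers were near the shares over all genes. No marker on these lists was at 0 in all libraries of a WT group. The part of these cell types in the rise of Nfkbia, Bcl3, Tnfaip3 and Nfkbiz was not tested.

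The genes whose pattern over the 8 WT libraries was most like the mean log2(TPM + 1) of the 6 tested genes, out of 9375 ranked, were Bcl2l11 (r = 0.99), Pnrc1 (0.98), Pip4k2a (0.98), Sergef (0.97) and Dusp10 (0.97). These are descriptions over libraries that share the split by diet and sex. Bcl2l11, which encodes the pro-apoptotic protein BIM, stood at 1.95 ± 0.32 TPM (SD, n = 4) on control diet and 4.35 ± 0.88 TPM (SD, n = 4) on alcohol.

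In liver labelled RageΔMye the effect of alcohol was asked for in animals meant to lack RAGE in myeloid cells. None of the 10 genes was called in either direction. Tnfaip3, Relb, Nfkbie and Traf1 were listed at 0 in all 6 libraries, and Nfkbiz at 1.45, 0 and 0.806 TPM on control diet and 0, 0 and 1.05 TPM on alcohol, so these 5 were not tested. None of the other 5 passed, with adjusted p from 0.751 to 0.964. None passed at an unadjusted p under 0.05 either, and none was free of overlap between diets. The summed Y-linked genes were at 3.16 to 4.50 TPM on control diet and 0.276 to 1.74 TPM on alcohol, without overlap, while Xist (0 to 3.10 and 0.322 to 0.990 TPM) overlapped. Whether sex differs between these diets was not tested. The backgrounds over 10689 genes tested, in either direction, were 0.0374% at the adjusted threshold, 6.99% unadjusted and 11.7% without overlap.

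Bcl3 stood at 3.88, 11.3 and 4.81 TPM in controls and at 9.91, 8.64 and 13.0 TPM on alcohol. Control replicate 2 lay among the alcohol libraries, and the difference was 0.69 (95% interval -0.80 to 2.19). Nfkbia was listed at 0, 12.4 and 8.76 TPM in controls and at 11.04, 19.2 and 8.74 TPM on alcohol. Its groups overlapped, and control replicate 1 was listed at 0, while the difference was 1.39 (95% interval -1.04 to 3.82). Birc3 was listed at 3.99, 0 and 3.16 TPM in controls and at 7.47, 0 and 6.19 TPM on alcohol. Replicate 2 was listed at 0 on either diet, and the difference was 0.52 (95% interval -2.09 to 3.13). Without control replicate 2 it was -0.21.

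Tnip1 was listed at 0 in 5 of the 6 libraries and at 23.2 TPM in alcohol replicate 1, through which alone it entered the test (difference 1.53, 95% interval -1.40 to 4.46). Tnfaip2 stood at 7.60, 1.64 and 4.54 TPM in controls and at 4.09, 5.98 and 1.18 TPM on alcohol, fully interleaved (difference -0.23, 95% interval -2.18 to 1.72). Standard errors of these 5 genes ran from 0.65 to 1.26, and those intervals include the rises measured in WT liver for Nfkbia and Bcl3. Over all genes tested the median SD of log2(TPM + 1) within a group was 0.80 on control diet and 0.77 on alcohol, against 0.22 and 0.16 in WT liver.

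The difference of the diet effect between genotypes was tested itself, on all 14 liver libraries with weights that allow each genotype its own spread. None of the 7 genes tested passed, as against 0.505% of 12069 genes tested, and none passed unadjusted, where the background was 8.5%. Tnfaip3, 1 of the 7, was listed at 0 in every library labelled RageΔMye, so its value (-0.97) is its WT rise with the sign turned. Nfkbiz reached a mean of 1 TPM only in WT liver, and Tnfaip2 only in liver labelled RageΔMye. Tnip1 was above 0 in a single library labelled RageΔMye. The split of the sex markers by diet in WT liver enters this difference too. Genotype also coincides with separate series of sample names, with fewer genes above 0 and with a larger opposite-strand share under the RageΔMye label. An effect of genotype cannot be told apart from these. Adjusted p ran from 0.741 to 0.979 and standard errors from 0.67 to 1.53. The intervals were wide, from -3.22 to 2.46 for Bcl3 and from -1.34 to 2.60 for Nfkbia as RageΔMye minus WT. A difference between genotypes was therefore not detectable for these genes in these libraries, which does not show that the diet effect was alike.

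**Figure D4:**
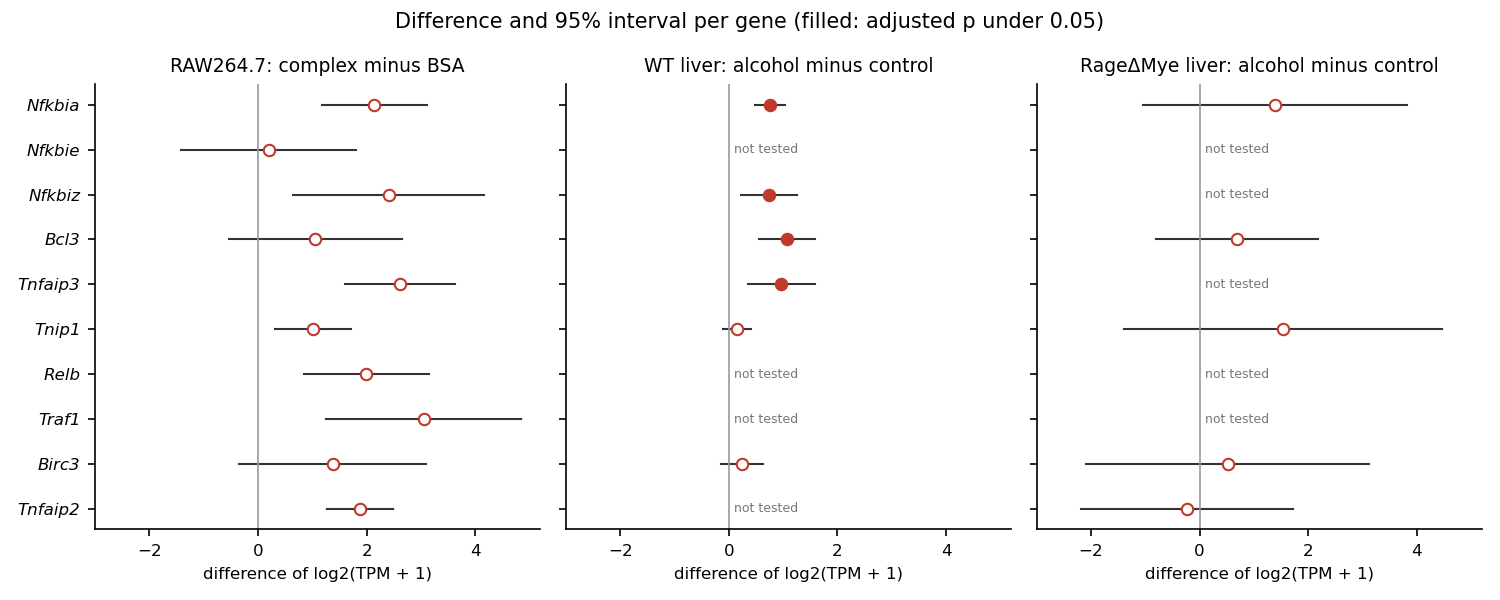
Points are the differences of log2(TPM + 1) on the horizontal axis for the genes on the vertical axis, with 95% intervals, filled where the adjusted p was under 0.05, in RAW264.7 cells, WT liver and RageΔMye liver. In WT liver Nfkbia, Nfkbiz, Bcl3 and Tnfaip3 are filled, and in RageΔMye liver the intervals of those tested all include 0.

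The RAW264.7 and liver values are set side by side with no test between them, since the tables were normalised apart. Tnfaip3 and Nfkbia were higher without overlap in both settings, by 2.61 and 2.14 with the complex and by 0.97 and 0.76 in WT liver on alcohol, and so were Relb and Traf1 by their TPM. Bcl3 rose in WT liver by 1.08 and overlapped between groups in RAW264.7 cells. Tnip1, Birc3 and Tnfaip2 were higher without overlap with the complex and overlapped between diets in WT liver. Nfkbie overlapped in each comparison in which it had values above 0.

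**Figure D5:**
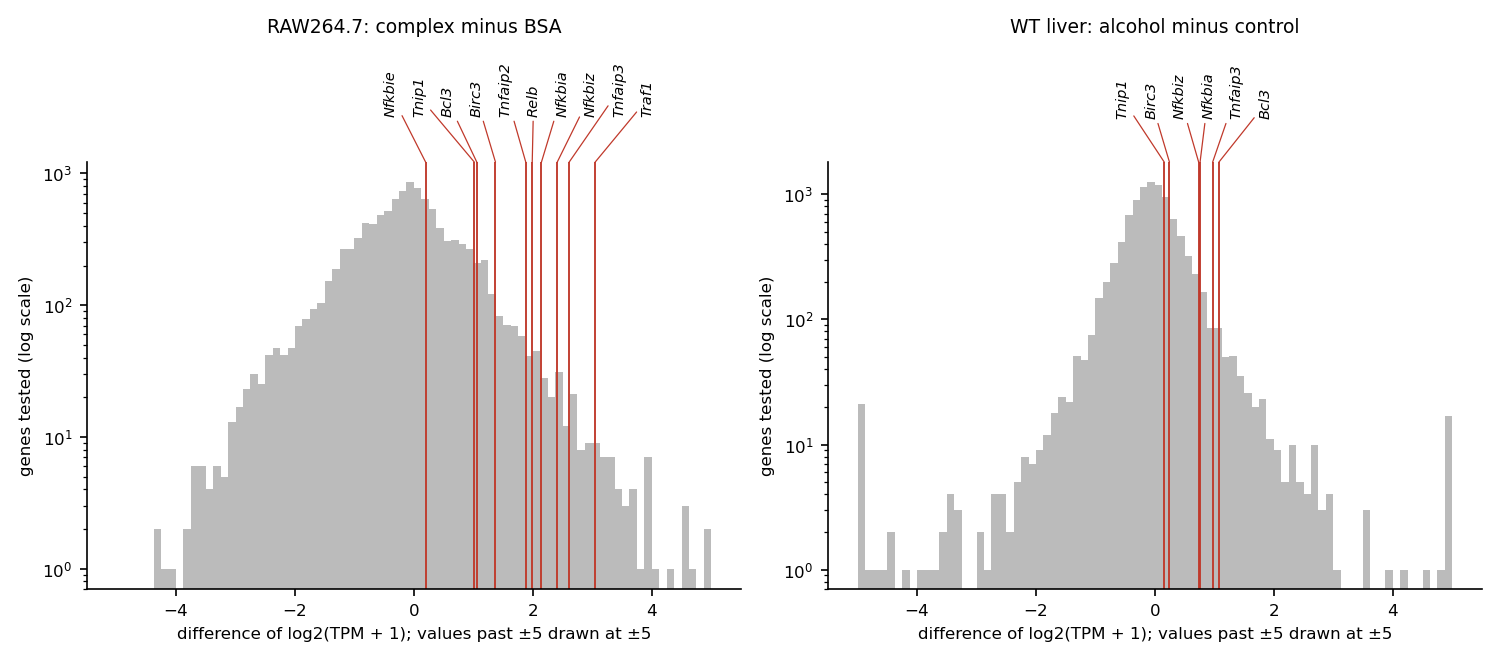
Grey bars count the genes tested (log axis) by their difference of log2(TPM + 1) in RAW264.7 cells and in WT liver, and red lines mark the feedback and survival genes tested. The RAW264.7 lines run from 0.20 for Nfkbie to 3.05 for Traf1 and the WT lines from 0.16 for Tnip1 to 1.08 for Bcl3.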

How the data were processed

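Libraries were made with a stranded mRNA kit, per the labels' protocols. The liver and RAW264.7 tables that the authors deposited are taken to hold TPM, made from reads scaled by gene length and library total. No header states the unit, which is read from columns that all sum to 1 total and are not whole numbers. Build mm10 is named in the submitters' processing notes, and the sources used here do not name the aligner, counting tool or strand setting. Columns outside the 20 samples numbered 0.

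Differences of log2(TPM + 1) were tested by limma (3.58.1, R 4.3.3, intensity trend) in separate fits for RAW264.7 cells, WT liver and RageΔMye liver, over genes whose mean reached 1 TPM in either group. The difference between genotypes came from 1 fit of 14 libraries with weights per genotype. P-values were adjusted by Benjamini-Hochberg over all genes tested, with a threshold of 0.05. The fits were tested on simulated data. Depth is unknown, so no counting interval is given. The genes and lists were chosen with earlier results of these data known. Named besides the 10 are antisense partners, the 5 most similar genes in WT liver, and per list up to 4 genes that passed with the smallest adjusted p or else examples of the smallest p. For RageΔMye liver and the difference between genotypes the lists were left out. GENCODE vM21 placed 24464 of 24970 symbols. Alternatives were pseudocounts of 0.1 and 10, no filter or 5 TPM, quantile normalization, no trend, removal of genes with opposite-strand exon overlap, a 2-fold minimum, joint liver fits, a replicate block and omission of each library.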

Additional observations from a re-analysis of the deposited data

Results flagged for a closer look

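In WT liver on alcohol, Bcl3 in replicate 4 stood at 13.5 TPM, far from 8.16, 8.82 and 8.84 TPM in the other 3 libraries of its group. In WT liver on control diet, Traf1 in replicate 2 stood at 0.241 TPM, far from 0.0999, 0.1005 and 0.0941 TPM in the other 3. Each gap to the nearest library, divided by the range of the group, was above Dixon's 95% critical value for 4 libraries. The 10 genes were checked in both WT groups, which makes 20 groups of values, and chance alone flags about 1 in 20.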

How the results depend on the processing

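The 0 of 10 genes past the test in RAW264.7 cells, in RageΔMye liver and for the difference between genotypes stood in all 15, 17 and 23 alternatives. In WT liver 4 passed, against 2 with a filter at 5 TPM, which tests fewer of them, 1 with a 2-fold minimum, 5 with no filter and a pseudocount of 0.1 (chosen after seeing the data), 0 in the fit of all 14 liver libraries with 1 spread and 2 to 4 when a library was left out (2 without control replicate 2, control replicate 3 or alcohol replicate 1). With weights per genotype in that joint fit 4 passed again. Of 103 alternative values of the genes in WT liver 17 lost the call and none turned sign. The signs that turned belong to values that passed nothing. Nfkbie in RAW264.7 cells ran from -0.15 to 0.78 over fits that left out a library, and in RageΔMye liver Tnfaip2 ran from -0.69 to 0.25 and Birc3 from -0.21 to 1.51.

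Genes called in RAW264.7 cells numbered 19, against 6 without opposite-strand overlap genes, 0 with the replicate block and 2 to 9 with a library left out. In WT liver they numbered 3042, against 1881 with a filter at 5 TPM, 680 with a 2-fold minimum and 471 in the joint fit. In RageΔMye liver they numbered 4, against 8 with a pseudocount of 10, 9 with a filter at 5 TPM, 7 with quantile normalization, 37 without the trend, 664 in the joint fit, 27 with weights, 0 with the replicate block and 0 to 5 with a library left out. For the difference between genotypes they numbered 61, against 128 without a filter, 39 without opposite-strand overlap genes and 463 without weights. Under the replicate block 0 of the 10 genes passed in RAW264.7 cells and in RageΔMye liver. Deviations of same-numbered libraries correlated between -0.03 and 0.02, not every library correlated best with its own number, and the numbers were not taken to pair the libraries. In WT liver no paired analysis was possible because its labels carry no shared numbers. The cause of these shifts was not tested. Because depth is unknown, what it limits in values near 0 cannot be given.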
